A study of Mus musculus with 19 samples.

Results

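The clustered protocadherin locus was read as the 930 kb from 37.08 to 38.01 Mb of mouse chromosome 18 (mm9), and its members are all deposited 5-hydroxymethylcytosine (5hmC) peaks that overlap it. There were 253 such peaks among 1601520 in 18 lists. The locus was split into an alpha block (320 kb, to 37.4 Mb), a beta block (400 kb, to 37.8 Mb) and a gamma block (210 kb), named for the Pcdha, Pcdhb and Pcdhg families, which have 14, 22 and 22 genes in RefSeq (58 in all). 5hmC, which TET enzymes make by oxidising 5-methylcytosine, was captured and sequenced from pre-iPSCs, stalled reprogramming intermediates derived from mouse embryonic fibroblasts. Wild-type (WT) pre-iPSCs had 3 libraries, A, B and C, at each of days 0, 2 and 10 (D0, D2 and D10), and knockout (KO) pre-iPSCs had 1 library of KO1 and 1 of KO2 on each day. Embryonic stem cells of the mouse line V6.5 (mESC) were sampled once each, at 0, 12 and 72 hours, without replicates. Cultures received ascorbic acid at 50 µg/mL together with 2i, the inhibitors CHIR-99021 and PD-0325901, and the labels give this treatment to all of these libraries, day 0 and mESC included. The labels do not name the deleted gene, do not say whether KO1 and KO2 lack the same gene or are single clones, and give no age or sex.

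Clustered protocadherins are cadherin-like adhesion proteins of the cell surface, best known in neurons, where each cell shows its own combination of isoforms. In the Pcdha and Pcdhg families each variable exon has a promoter of its own and is spliced to constant exons shared by the family, which lie at the far end of the family's array. Pcdhb genes have no such constant exons. Promoter choice in the family is known to involve CTCF, cohesin and DNA methylation, the substrate of 5hmC. No protein or RNA was measured here, and no mm9 gene annotation was used, so no peak is placed in a gene, an exon or a promoter. In the GRCm38 gene order, Pcdhgc5 closes the array and is followed by Gm29994 and Diaph1. Where that border falls on mm9 was not determined, so the last windows of the gamma block may reach into the neighbouring genes.

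The lists held 55134 to 161004 peaks in pre-iPSCs and 24130 to 33576 in mESC, and chromosome 18 took 3.01% to 3.61% of the peaks of every list. Sequencing depth relative to the control, recovered from the steps of the deposited fold values, was 1.02 to 1.67 in 14 pre-iPSC libraries, and that of WT D0 C could not be recovered. The median WT library covered 36.7 Mb with peaks, and WT lists shrank from D2 (43.6 to 64.7 Mb) to D10 (17.6 to 31.7 Mb). For tests, each list was therefore cut to its 55130 strongest peaks and scaled to a common total of covered bp. Bp values per library below are from all deposited peaks unless said otherwise.

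Deposited peaks covered a small part of the locus in pre-iPSCs. Peaks covered 0.195% to 1.46% of its length, with medians of 0.541% in WT and 0.702% in KO. At D0, the 3 WT libraries had 9, 13 and 10 peaks in the locus, covering 3661, 6517 and 3806 bp. At D2 they had 29, 19 and 16 peaks and 12601, 9824 and 7713 bp. At D10 they had 15, 9 and 5 peaks and 5031, 3429 and 1814 bp. Every D2 library lay above every D0 and D10 library in covered bp, and the D0 and D10 libraries overlapped.

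Set against tiles of the same 930 kb length over chromosomes 1 to 19 and X, the locus was below the median tile in WT at D0, at 0.399 to 0.619 times its covered bp. It was near the median at D2 (0.911 to 1.09 times) and below it at D10 (0.664 to 0.890 times). In KO1 the locus held 1.16, 1.12 and 0.856 times the median tile at D0, D2 and D10, and in KO2 0.296, 0.409 and 0.650 times, so the KO lines lay further apart than the WT libraries of the same day at D0 and D2, though not at D10. In mESC the ratios were 1.87, 2.72 and 1.93 at 0, 12 and 72 hours. Per Mb of covered sequence, 99.7 to 195 bp lay in the locus in WT and 397 to 541 bp in mESC. The mESC lists are shorter, and the share of this difference that comes from list length was not tested.

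**Figure D1:**
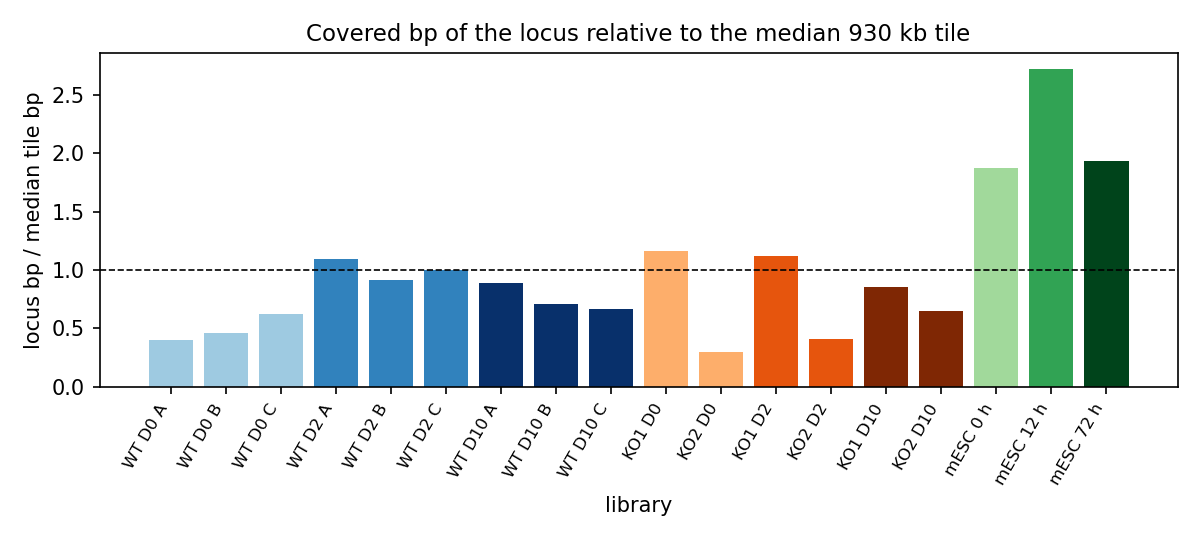
Covered bp of the locus divided by the covered bp of the median 930 kb tile in the same library (y axis, ratio), from all deposited peaks, for each of the 18 libraries (x axis). The dashed line marks a ratio of 1; the mESC bars stand at 1.87 to 2.72, and the WT D0 bars at 0.399 to 0.619.

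In limma over all tiles, the WT change of the locus from D2 to D10 was -0.45 on the log2(covered bp + 2000) scale (SE 0.18, Benjamini-Hochberg adjusted p = 0.0480). In that contrast 41.8% of tiles passed the threshold of 0.05, and 17.0% passed as lower. The median tile moved by 0.09, so the locus stood at -0.55 relative to it. This call did not hold when any of WT D2 A, WT D2 C, WT D10 A, WT D10 B or WT D10 C was left out (adjusted p up to 0.149), or without the last 10 kb of the locus (log2 change -0.15, limma adjusted p = 0.588). The changes from D0 to D2 (0.24, SE 0.18, limma adjusted p = 0.297, where 43.2% of tiles passed) and from D0 to D10 (-0.21, SE 0.18, limma adjusted p = 0.326, where 52.8% passed) did not pass.

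Within the locus, pre-iPSC peaks crowded into the gamma block. This block makes up 22.6% of the length, yet it held 96 of 125 WT peaks and 79 of 88 KO peaks, against 10 of 40 in mESC. By covered bp, its share was 85.8% in WT at D0, 87.6% at D2 and 70.7% at D10, and 100% in KO at D0, 91.3% at D2 and 89.7% at D10. In mESC the share was 38.2% at 0 hours, 39.3% at 12 hours and 0% at 72 hours. Over all 18 lists, the 930 kb just after the locus held 1438 peaks and the 930 kb just before it 576, against 253 in the locus, 185 of them in the gamma block. Whether the gamma block is denser than neighbouring stretches of its length was not tested.

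**Figure D2:**
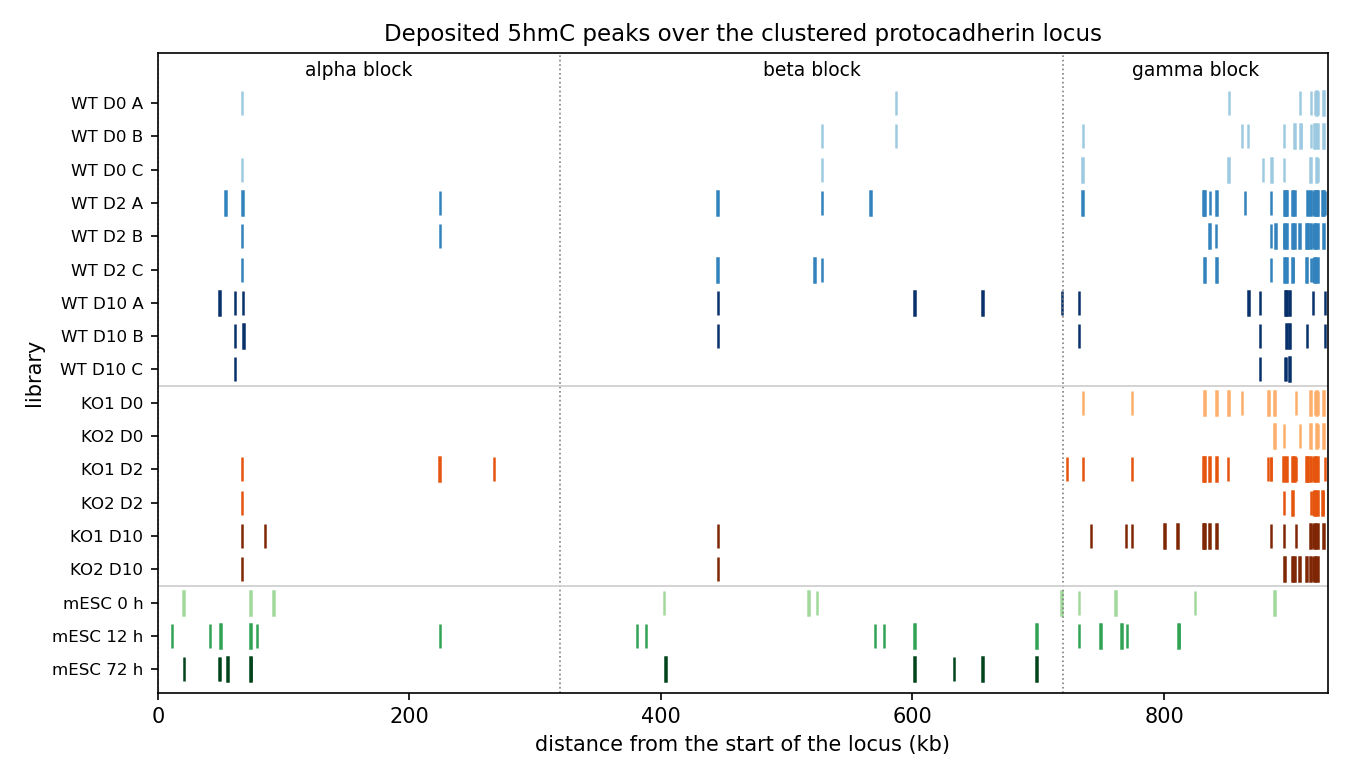
Each deposited peak of the 18 libraries (rows) as a bar against the distance from the start of the locus in kb (x axis), with the block borders as dotted lines; bars have a minimum drawn width. Pre-iPSC rows fill toward the right end of the gamma block, and the 40 mESC peaks are spread over all 3 blocks, with none in the last 20 kb.

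The gamma block of WT held 3068, 5821 and 3112 bp at D0 (4000 ± 1577, SD, n = 3), 10954, 9134 and 6324 bp at D2 (8804 ± 2333, SD, n = 3) and 3233, 2440 and 1595 bp at D10 (2423 ± 819, SD, n = 3). Every D2 library lay above every D0 and D10 library. After the cut to the strongest peaks and scaling, the days differed (F = 11.8 on log2(covered bp + 1000), two-sided exact permutation p = 0.00714, the smallest possible being 0.00357). The mean log2 change was 0.39 from D0 to D2 (exact permutation p = 0.2), -0.69 from D2 to D10 (exact permutation p = 0.1) and -0.31 from D0 to D10 (exact permutation p = 0.1), and 0.1 is the smallest p that 3 against 3 allows. From D2 to D10 the same-letter changes were -0.70, -0.67 and -0.71 in A, B and C, though letters do not pair libraries across days. Without the last 10 kb of the block, the difference between days no longer passed (F = 3.42, exact permutation p = 0.0786).

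The alpha and beta blocks held few peaks in pre-iPSCs. WT libraries had 283, 0 and 361 bp in the alpha block at D0, 909, 690 and 325 bp at D2, and 723, 687 and 219 bp at D10. In the beta block they had 310, 696 and 333 bp at D0, 738, 0 and 1064 bp at D2, and 1075, 302 and 0 bp at D10. The libraries of the 3 days overlapped in both blocks. Neither block passed over days under the strongest scaled peaks (alpha exact permutation p = 0.464, beta exact permutation p = 0.464). Most WT libraries stood at 0 bp there, so these tests could show little. Only WT D0 C, WT D10 B and WT D10 C had bp in the alpha block, and only WT D0 A, WT D0 C and WT D2 C in the beta block. With all deposited peaks unscaled, neither passed (alpha exact permutation p = 0.221, beta exact permutation p = 0.914). KO libraries had no peak in either block at D0 and none in the beta block at D2. The widest stretch with no WT peak, 220333 bp at chr18:37304540-37524872, ran from the alpha into the beta block.

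**Figure D3:**
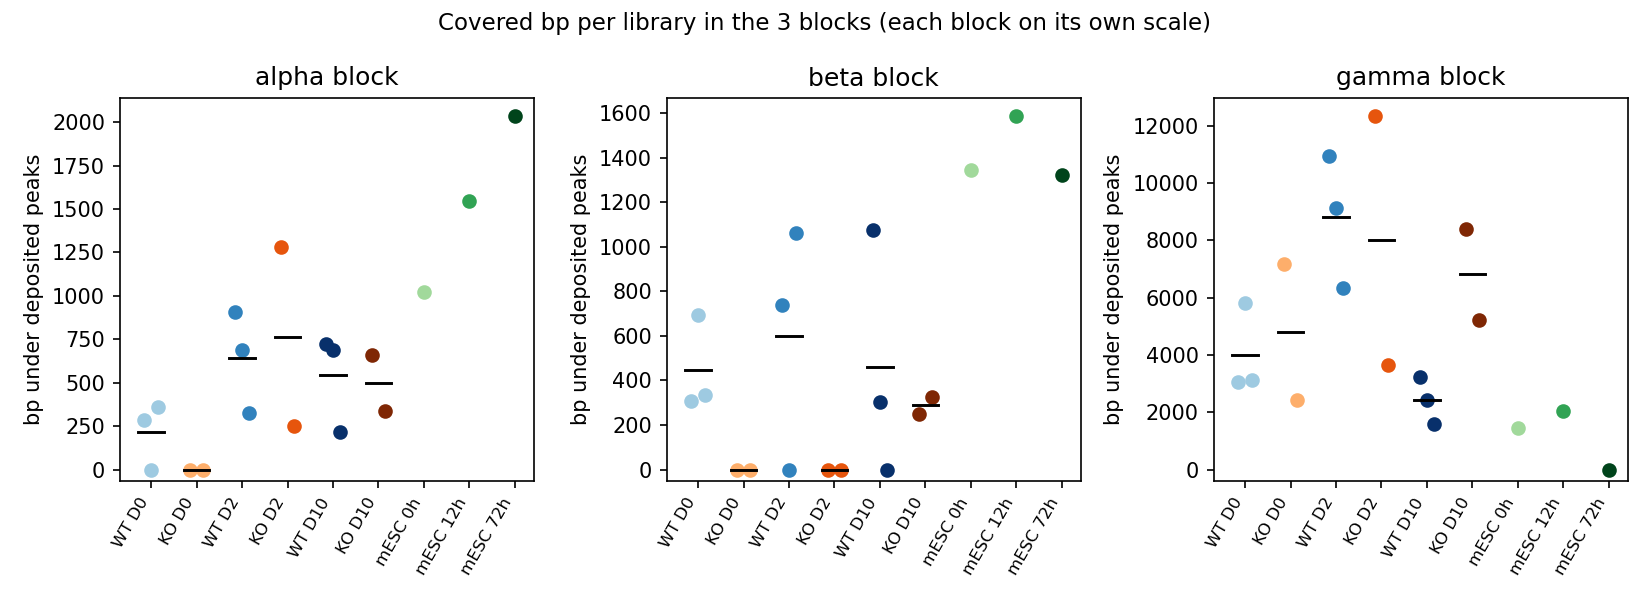
Bp under all deposited peaks (y axis, own scale per panel) in the alpha, beta and gamma blocks for each library (points), grouped by arm and day or hour (x axis), with the group mean as a line where a group has more than 1 library. In the gamma block the WT D2 points (6324 to 10954 bp) stand above the WT D10 points (1595 to 3233 bp), and mESC at 72 hours is at 0.

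The gamma block of the KO lines held 7179 bp (KO1) and 2420 bp (KO2) at D0, 12343 and 3637 bp at D2, and 8407 and 5216 bp at D10. At D10 both KO libraries lay above the 3 WT libraries. The KO lists at D10 also covered more of the genome, 52.0 Mb (KO1) and 43.1 Mb (KO2) against 17.6 to 31.7 Mb in WT. On the scaled log2 scale, KO minus WT at D10 was 0.58 (exact permutation p = 0.1, the smallest that 2 against 3 allows), and without the last 10 kb of the block it was 0.04 (exact permutation p = 0.9). At D0 it was -0.19 (exact permutation p = 0.9) and at D2 -0.13 (exact permutation p = 0.6). From D2 to D10 KO1 changed by -0.32 and KO2 by 0.34, and the difference from the WT change was 0.70 (exact permutation p = 0.1). For this p, WT changes were taken within letters, which do not pair libraries across days. Run names come in styles that KO1 shares with WT B and KO2 with WT C. Within these styles KO minus WT at D10 was 0.69 and 0.60. At D0 the same pairs gave 0.85 and -1.35, in opposite directions.

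Over all tiles in limma, the locus did not pass between KO and WT. The log2 difference was -0.20 at D0 (SE 0.33, adjusted p = 0.879, where 0.255% of tiles passed), -0.10 at D2 (SE 0.33, adjusted p = 0.992, where 0% passed) and 0.37 at D10 (SE 0.33, adjusted p = 0.462, where 19.5% passed). The difference between arms in the change from D2 to D10 was 0.47 (SE 0.47, limma adjusted p = 0.630, where 2.92% passed). Without the last 10 kb, the D10 difference was -0.05 (limma adjusted p = 0.939).

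The last 20 kb of the gamma block, 2.15% of the length of the locus, held 33.1% to 66.2% of its covered bp in WT at D0, 37.5% to 49.9% at D2, 0% to 20.5% at D10 and 36.8% to 80.3% in KO. Its 2 windows of 10 kb were the only ones called in the main fit, which used the filter on covered bp described next. The locus has 93 such windows, 30 with any deposited pre-iPSC peak and 3 with the mean of at least 500 covered bp needed for the WT fit. These 3 are chr18:37970001-37980000, chr18:37990001-38000000 and the last 10 kb of the locus, which starts at chr18:38000001. The last 2 of them also entered the fit with KO. The window chr18:37980001-37990000 fell short of that mean. With every window holding a covered bp tested, chr18:37950001-37960000 was called as well, in the opposite direction. It had 480, 397 and 405 bp in WT at D10, 283 bp in WT D0 C and 0 bp in every other pre-iPSC library. On the log2(covered bp + 200) scale it had 1.93 more at WT D10 than at D2 (SE 0.41, limma adjusted p = 0.0115), 1.43 more than at D0 (SE 0.41, limma adjusted p = 0.0346), and 1.93 less in KO than in WT at D10 (SE 0.45, limma adjusted p = 0.0109). This window fell short of the planned mean and entered mainly through its WT D10 peaks. All WT D2 and KO libraries stood at 0 bp there and showed no spread, so these calls are not independent support for a gain.

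The last window had 1679, 2379 and 941 bp in WT at D0, 2154, 1830 and 1569 bp at D2 and 277, 264 and 0 bp at D10. All WT D10 libraries lay below all D0 and D2 libraries, which overlapped. From D2 to D10 the window fell by 2.12 on the log2(covered bp + 200) scale (SE 0.40, limma adjusted p = 0.00251), and D10 minus D0 was -2.22 (SE 0.40, limma adjusted p = 0.00175). The change from D0 to D2 was -0.10 (SE 0.40, limma adjusted p = 0.897). KO1 held 2374, 2122 and 2282 bp at D0, D2 and D10, and KO2 held 1187, 1917 and 1466 bp, so that both lines at D10 stood within the range of WT at D0.

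The window before it, chr18:37990001-38000000, had 745, 819 and 319 bp in WT at D0, 2574, 2873 and 2281 bp at D2 and 240, 439 and 0 bp at D10. D2 libraries lay above all others, and D0 and D10 overlapped. It rose from D0 to D2 by 1.57 (SE 0.40, limma adjusted p = 0.0285) and fell from D2 to D10 by 2.59 (SE 0.40, limma adjusted p = 0.000835). This window met the mean of at least 500 covered bp mainly through WT D2. Its WT group means under the strongest scaled peaks were 349 bp at D0, 1442 bp at D2 and 97 bp at D10. The rise and the fall are thus not independent support for a high D2 value. The rise was no longer called without any 1 of WT D0 A, WT D0 B, WT D2 A, WT D2 B or WT D2 C (limma adjusted p up to 0.0851), while both falls and the D10 difference from D0 in the last window held without each WT library. KO1 held 612, 2889 and 1398 bp and KO2 387, 1204 and 1520 bp at D0, D2 and D10, above every WT D10 library on D10.

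At D10 both windows were higher in KO than in WT. The difference was 2.33 in the last window (SE 0.53, limma adjusted p = 0.00545) and 2.19 in chr18:37990001-38000000 (SE 0.59, limma adjusted p = 0.0141). Without KO1 at D10 the last window missed the threshold (2.19, limma adjusted p = 0.0520), and without KO2 at D10 the window before it did (1.89, limma adjusted p = 0.0717). Within run name styles the differences at D10 were 2.32 (KO1 minus WT B) and 2.93 (KO2 minus WT C) in chr18:37990001-38000000, and 2.01 and 3.13 in the last window. At D0 and D2 neither window passed between the arms (limma adjusted p from 0.967 to 1). The difference in change from D2 to D10 was 2.58 (SE 0.83, limma adjusted p = 0.0600) and 2.20 (SE 0.75, limma adjusted p = 0.0702) in the same order, and neither passed. With the line or letter as a replicate block, the adjusted p from limma was 0.0489 and 0.0531. Over all alternatives it ran from 0.0357 (without WT D10 A) to 0.136 in chr18:37990001-38000000, passing in 5 of 18, and from 0.0382 (all peaks unscaled) to 0.182 in the last window, passing in 1 of 18.

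Many windows of the genome moved the same way. From D0 to D2, 17.0% of 15763 windows passed (14.0% as higher), and the median window moved by 0.36. From D2 to D10, 46.2% passed (32.5% as lower) and the median moved by -0.60, so the last window stood at -1.52 relative to it and the window before it lower still. Between D0 and D10, 49.3% passed (26.9% as lower) and the median moved by -0.19. Between KO and WT at D10, 25.8% of 15737 windows passed (20.8% as higher) and the median difference was 0.66. Relative to that median, the difference was 1.67 in the last window and 1.54 in chr18:37990001-38000000. At D0 and D2, 0.0381% and 0.0254% passed, and for the difference in change 11.1% passed. The 930 kb just past the locus also held less at WT D10 (12129 to 20827 bp) than at D2 (51896 to 70403 bp). KO1 and KO2 at D10 held 49523 and 27139 bp there, above every WT D10 library. The 930 kb just before the locus held 14751 to 23602 bp at WT D2 and 7579 to 11581 bp at WT D10. KO1 and KO2 at D10 held 16853 and 9062 bp in that stretch.

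**Figure D4:**
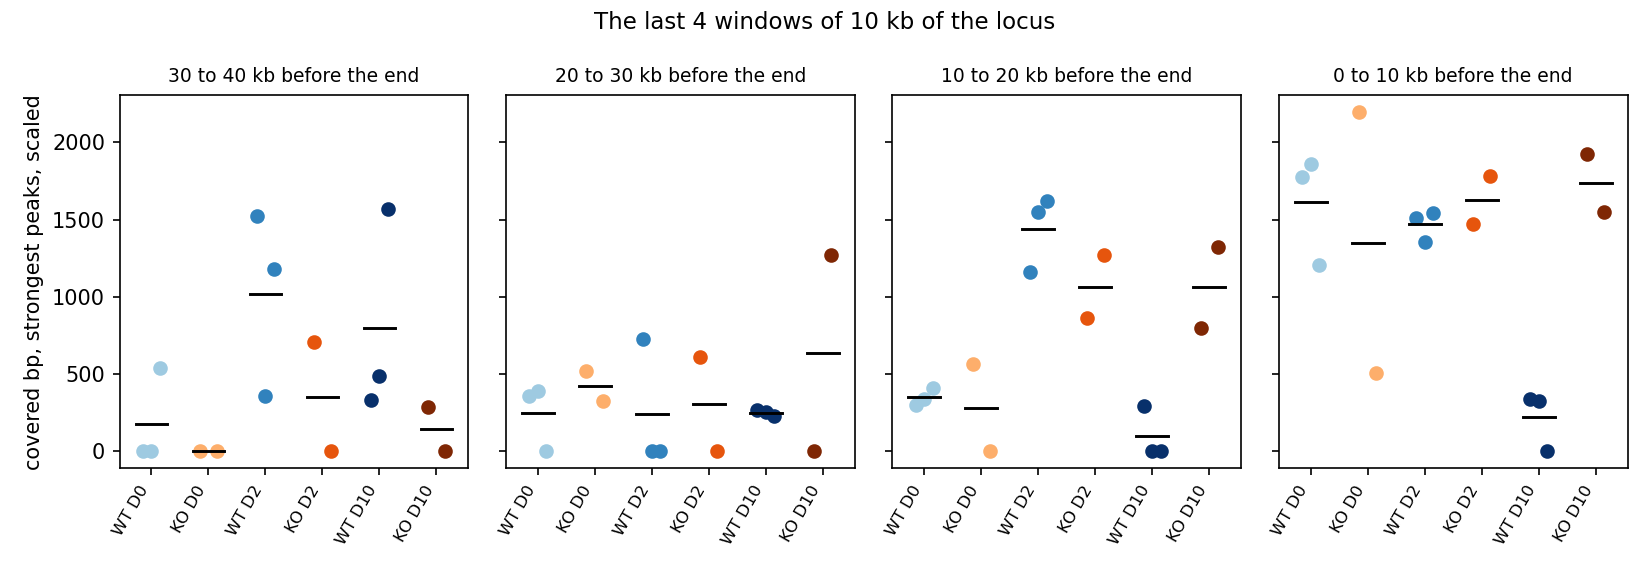
Covered bp under the strongest peaks, scaled to a common total (y axis), in each of the last 4 windows of 10 kb of the locus (panels), for the 15 pre-iPSC libraries (points) by arm and day (x axis); lines are group means. In the last panel the WT D10 points lie below the points of all other groups, at 0 to 336 bp, and in the panel before it, at 0 to 291 bp, they lie below every WT D0 point and overlap KO D0.

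Upstream of these windows the pattern was mixed. The window chr18:37970001-37980000 had 0, 294 and 419 bp in WT at D0, 2090, 1666 and 1200 bp at D2 and 1336, 855 and 1040 bp at D10. Its D2 and D10 libraries overlapped, and both days lay above D0. No contrast passed here in the main fit. D2 minus D0 was 1.83 (SE 0.68, limma adjusted p = 0.0992), D10 minus D2 -0.34 (SE 0.68, limma adjusted p = 0.704) and D10 minus D0 1.49 (limma adjusted p = 0.0981). D10 minus D0 passed with all peaks scaled (2.19, limma adjusted p = 0.00578) or unscaled (1.68, limma adjusted p = 0.0119). It also passed with a replicate block (1.49, limma adjusted p = 0.0438) and without WT D0 C (2.12, limma adjusted p = 0.0257). D2 minus D0 passed with all peaks unscaled (2.20, limma adjusted p = 0.00892), with the strongest unscaled (2.02, limma adjusted p = 0.0428) and without WT D0 C (2.46, limma adjusted p = 0.0294). KO at D10 had 337 and 799 bp there. The window chr18:37980001-37990000 had 1546, 1473 and 546 bp in WT at D2, 220, 204 and 150 bp at D10, and 670 and 1431 bp in KO at D10. It was called lower from D2 to D10 in WT with all peaks unscaled (-1.73, limma adjusted p = 0.0313). Among the other windows of the locus, chr18:37140001-37150000 in the alpha block was the most covered outside the gamma block, at 0 to 687 bp per pre-iPSC library.

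Merging the peaks of the 9 WT libraries gave 46 regions in the locus, of 296639 in the genome: 6 in the alpha, 8 in the beta and 32 in the gamma block. On at least 1 day, 13 were present in each of the 3 libraries, and 15 were seen in a single library. Between D2 and D10, 8 regions (17.4%) were lost, meaning a peak in all 3 D2 libraries and none at D10, against 13.9% of all WT regions. In the other direction 3 (6.52%) were gained, against 3.36%. From D0 to D2, 4 were gained (8.70% against 8.43%) and 0 lost (against 2.55%). From D0 to D10, 4 were gained (8.70% against 6.49%) and 2 lost (4.35% against 8.91%). A peak in all 9 WT libraries was found for 0 regions, against 1.15% of all regions. No test was made of these shares, which rest on 8 or fewer regions each.

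The longest region with all 3 libraries of a day, chr18:38001059-38002660 (1602 bp), had a peak in all WT libraries of D0 and D2 and all 6 KO libraries, and none in WT at D10 or in mESC. In the authors' fold enrichment at the summit, a ratio over the background, its peaks reached 15.3 in WT D2 B, 13.5 in WT D2 A and 13.0 in KO1 D2. In each of these lists 99.6% to 99.9% of peaks had a lower -log10 p. Its KO peaks at D10 reached 12.8 (KO1) and 7.79 (KO2), above 99.1% and 97.1% of their own lists. The region chr18:37999408-38000393 (986 bp) had peaks in 2 WT D0, all 3 WT D2, 1 KO D0 and both KO libraries at D2 and at D10, and none in WT D10. A further region, chr18:37996394-37997231 (838 bp), chosen after its values were seen, had the same pattern as the longest one.

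**Figure D5:**
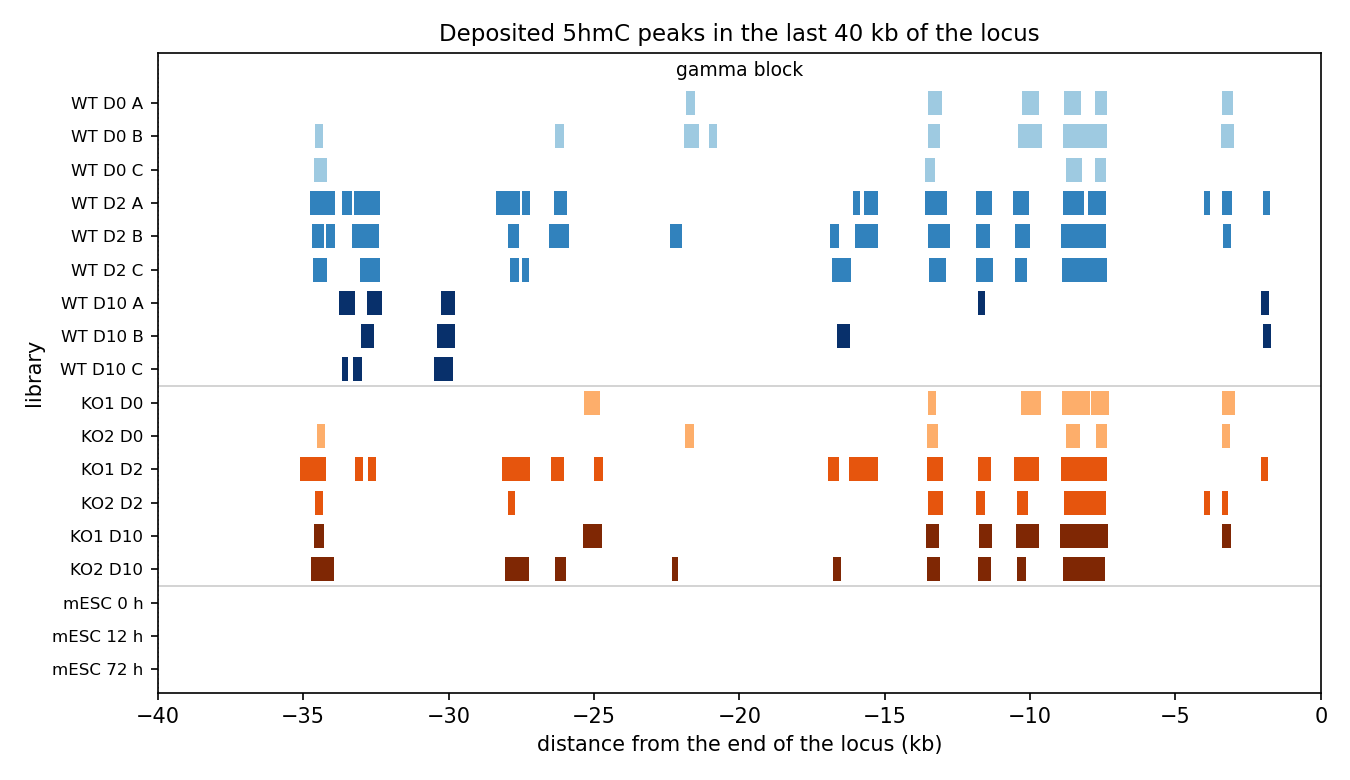
Deposited peaks of the 18 libraries (rows) in the last 40 kb of the locus, drawn to scale against the distance from its end in kb (x axis). WT D0, WT D2 and all KO rows have either 1 broad peak or 2 shorter ones about 8 kb before the end, which the WT D10 and mESC rows lack, and the WT D10 rows share a peak about 30 kb before the end.

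A few regions ran the other way. The second longest region of the gamma block, chr18:37976242-37977704 (1463 bp), had peaks in all WT libraries of D2 and D10, none at D0, and in KO only in KO1 at D2. The 3 regions gained from D2 to D10 were chr18:37141063-37141392 in the alpha block and chr18:37956113-37956600 and chr18:37979496-37980220 in the gamma block, the last pair chosen after their values were seen. None of the 3 had a peak in any KO or mESC list. In the alpha block, chr18:37146841-37147264 (424 bp) showed peaks in 2 WT D0 libraries, all 3 at D2 and none at D10, and in both KO lines at D2 and at D10. The beta block had no region with all 3 libraries of a day.

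KO lists at D10 were read over the WT regions, with all deposited peaks. At D10 the KO lists held 112303 (KO1) and 111281 (KO2) peaks, and the WT lists 86465, 77530 and 55134 (A, B and C). How far list length sets the shares below was not tested. Of 16 regions with a peak in at least 2 WT libraries at D2 and none at D10, 13 (81.2%) had a peak in KO1 or KO2 at D10 and 5 (31.2%) in both, against 75.6% and 29.8% of such regions in the genome. Of 8 regions with a peak in at least 2 WT libraries at D10, 1 (12.5%) had a KO peak at D10, against 53.7% in the genome, with no test made. Regions were also chosen as lost on 2 WT letters at a time and read in the D10 library of the letter left out. They numbered 9, 11 and 13 with A, B or C left out. The left-out WT library had 1, 0 and 0 of them at D10, KO1 had 8, 8 and 9, and KO2 had 7, 7 and 7. Over the genome the same reading gave 13.4%, 7.89% and 3.40% in the left-out WT library, 75.1%, 71.2% and 66.2% in KO1 and 53.2%, 51.4% and 45.9% in KO2.

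The mESC peaks lay elsewhere. The 3 lists had 11, 18 and 11 peaks in the locus at 0, 12 and 72 hours, covering 3837, 5167 and 3360 bp. In the alpha block they held 1025, 1548 and 2037 bp, in the beta block 1345, 1589 and 1323 bp, and in the gamma block 1467, 2030 and 0 bp. In the alpha and beta blocks each mESC library was above every WT library, though mESC lists were the shortest in the series. KO1 at D2, with 1280 bp in the alpha block, was above mESC at 0 hours. The last 20 kb of the locus had 0 bp in all 3 mESC lists, against 1260 to 4728 bp in WT at D0 and D2. With 1 library per time, no test was made.

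Of 81 regions merged over all 18 lists, 26 had peaks in mESC only, 7 in mESC and in pre-iPSCs, 13 in WT only and 11 in KO only. The mESC-only regions numbered 9 of 17 in the alpha, 10 of 18 in the beta and 7 of 46 in the gamma block. The same shares over the genome were not computed, so these counts do not show whether such regions are more common here than elsewhere. The mESC lists overlapped each other in part: of the 11 peaks at 0 hours, 2 (18.2%) overlapped a 12 hour peak and 2 a 72 hour peak, and of the 18 peaks at 12 hours, 4 (22.2%) overlapped a 72 hour peak. Genome-wide these shares were 24.3%, 5.24% and 18.1%. Only 1 region, chr18:37153371-37153720 in the alpha block, had a peak in all 3 mESC lists, and no pre-iPSC list had one. Its authors' fold was 4.08, 4.59 and 5.49 at 0, 12 and 72 hours, values that are not compared between lists. In the same order, 31.4%, 77.8% and 89.5% of its own list had a lower -log10 p.

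Authors' folds are not compared between lists, so peaks are placed in their own list. In the mESC list at 72 hours, the beta block peak chr18:37681302-37681732 had a fold of 9.78, rank 31 of that list, and 99.8% of the list had a lower -log10 p. A further beta block peak of that list, chr18:37483604-37483812, had a fold of 5.70 (83.7% lower), and the alpha block peak chr18:37129299-37129634 one of 5.71 (92.2% lower). In pre-iPSCs, WT D0 A had a fold of 5.78 at chr18:37666563-37666872 in the beta block (59.5% lower), and KO1 D2 one of 5.47 at chr18:37146843-37147181 in the alpha block (64.5% lower). Of 15 WT regions with a D10 peak, 5 (33.3%) had a mESC peak, against 2 of the 31 (6.45%) with WT peaks only at D0 or D2. Over the genome the same shares were 30.4% and 8.98%. At D10, 4 of those 5 were seen in WT D10 A alone.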

How the data were processed

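5hmC was labelled through a modified glucose, captured with biotin and sequenced. Bowtie, SAMtools and MACS2 with the mm9 build are named by the submitters' processing notes (versions: not given in the sources used here). Each of the 18 deposited lists gives per peak the authors' score, their fold at the summit as a linear ratio, and -log10 of p and q; the run names carry a p threshold of 0.0001. These values are the authors' and are read within a list only, apart from choosing which peaks to name. A label says that peaks were not called for mESC, yet their lists were deposited and are used. Absolute depth is unknown. Replicates are not stated to be separate cultures, so p-values cover the spread among these libraries alone, and that spread may be technical.

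Covered bp were counted on chromosomes 1 to 19 and X (149 peaks lie elsewhere) for the 55130 strongest peaks by the authors' -log10 p, scaled to the mean total. limma 3.58.1 (trend, robust, R 4.3.3) tested 930 kb tiles and 10 kb windows with a mean of at least 500 bp, on log2(covered bp + 2000) and log2(covered bp + 200), adjusted by Benjamini-Hochberg over all features at 0.05; WT days used 9 libraries and KO contrasts 15. Such log2 changes understate changes of sparsely covered features. Blocks were tested by two-sided exact permutation on log2(covered bp + 1000). Peaks overlapped at 1 bp or more. Methods were tested on simulated data. Gene names and order come from the RefSeq table of GRCm38, with no coordinates used. Named are windows with a call, the most covered windows, and per block the 3 longest WT regions with all 3 libraries of a day and the 3 highest folds. The members and lists were chosen with earlier results of these data known. The input library has no list and was not analysed here.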

Additional observations from a re-analysis of the deposited data

Results flagged for a closer look

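In the window chr18:37990001-38000000, every WT letter had less from D0 to D10 and both KO lines had more. On the scaled log2(covered bp + 200) scale, D10 minus D0 was -0.03, -1.42 and -1.61 in WT A, B and C, and 0.38 and 2.93 in KO1 and KO2, a difference of 2.68 between the arm means. This difference was not tested. WT A barely moved, the KO2 value starts from 0 bp among the strongest peaks at D0, and WT letters do not pair libraries across days.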

How the results depend on the processing

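Fits were repeated with other peak sets and scalings, pseudocounts, filters, a replicate block and each library left out, 387 alternatives over 31 values, of which 312 kept direction and side of the threshold or stayed within 1.5 times the count. Leaving the last 10 kb out was chosen after seeing the data. The cause of the changes below was not tested. The tile fall from D2 to D10 missed the threshold with all peaks scaled (-0.40), a pseudocount of 500 bp (-0.62), without the last 10 kb (-0.15), and at an unchanged -0.45 with a replicate block or in the fit of all 15 libraries, and ranged from -0.55 to -0.40 with single libraries left out. The tile D10 minus D0 turned to 0.0085 with all peaks scaled and 0.25 without the last 10 kb, and KO minus WT turned to 0.061 at D0 with all peaks scaled and -0.052 at D10 without the last 10 kb. With single libraries left out, KO minus WT ran from -0.95 to 0.55 at D0 (positive without KO2) and from -0.35 to 0.15 at D2 (0.15 without KO2).

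The alpha block's KO minus WT at D10 turned to 0.039 with -log10 q of at least 5, and ran from -0.43 to 0.014 with single libraries left out (0.014 without WT D10 B, 0.0060 without KO1). The gamma block's F over days fell to 3.42 without the last 10 kb. With the WT letter as a replicate block it was 30.9 (exact permutation p = 0.0278, the smallest that this blocked test allows). WT letters do not pair libraries (r from -0.03 to 0.04 over windows), so the block is not part of the main tests. KO lines carry a title across days and deviated together (r from 0.23 to 0.34).

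Windows called from D0 to D2 numbered 1, against 2 with all or with the strongest peaks unscaled, 0 with all peaks scaled, a pseudocount of 50 bp, a mean of at least 2000 bp, a replicate block or the fit of all 15, and 0 to 2 with single libraries left out. From D0 to D10 it was 1, against 2 with all peaks (scaled or not), every window tested or a replicate block (1 higher and 1 lower in each), 2 with the strongest unscaled (both lower), 0 at 2000 bp, and 1 to 2 with single libraries left out. From D2 to D10 and for KO minus WT at D10 it was 2, against 0 at 2000 bp, where no locus window was left. With all peaks unscaled, 3 were called lower from D2 to D10. With every window tested, 3 were called in that contrast (1 higher, 2 lower) and 3 for KO minus WT (2 higher, 1 lower). For KO it was 1 to 2 with single libraries left out.

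Regions gained from D0 to D2 numbered 4, against 0 with the strongest peaks, 2 at 50% overlap and 11 with 2 of 3 libraries; lost 0, against 3 with 2 of 3. From D2 to D10 gained 3 became 5 with 2 of 3, and lost 8 became 4, 5 and 16 in the same order. From D0 to D10 gained 4 became 2 with the strongest and 8 with 2 of 3, and lost 2 became 1, 1 and 11. Depth limits weak peaks: the weakest common peak needs 14 to 26 fragments at its summit, so a missing peak does not show that 5hmC was absent.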
